A study of Homo sapiens with 8 samples.

Results

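The pentose phosphate pathway and its companion sources of reducing power, cytosolic and mitochondrial, were followed through 9 human genes in HepG2 cells. They were the oxidative-branch genes PGD and PGLS, the non-oxidative-branch genes TKT, TALDO1, RPIA and RPE, the cytosolic malic enzyme gene ME1, and the NADP-dependent isocitrate dehydrogenase genes IDH1 and IDH2. The genes were taken by symbol from the 38032 gene identifiers in the count files, and 8 of the 9 had at least 10 counts in at least 2 libraries. These 8 were among the 13943 genes tested. Other enzymes of the pathway were not analysed here, apart from the related genes named further on.

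HepG2 is a human hepatocellular carcinoma cell line that keeps many secretory and metabolic functions of hepatocytes. Wild-type HepG2 cells were kept for 8 days either on standard flat plasticware (2D-primed, n = 4) or in 3 dimensions on Alvetex Strata, a porous polystyrene scaffold (3D-primed, n = 4). Both groups had the same supplemented minimum essential medium with serum, and cells of both were freed with trypsin and sequenced as poly(A)-selected, strand-specific libraries. All libraries derive from 1 cell line, and since the labels call them replicates without saying whether each was a separate culture, the p-values below measure the spread between these libraries. Library totals ran from 21599630 to 27844077 counts. All 8 hepatocyte marker genes had a mean of at least 10 CPM (counts scaled to a common library total, with TMM factors). Of the markers of other cell types, KDR, STAB2, PTPRC, CD3E, DCN, LUM and COL3A1 had at most 3 counts in any library, while LYZ, CD68, PDGFRB and ACTA2 were above 10 CPM. Several of these other markers moved with the groups, as CD68 fell by 1.08 on the log2 scale, from a mean of 72.7 to 34.4 CPM, while LYZ rose by 0.28 and PDGFRB by 0.62 on the log2 scale and ACTA2 did not pass the test (-0.17). At lower levels, the log2 fold change was -1.56 for CDH5 and -3.72 for COL1A1, which were lower, and 0.62 for VWF and 0.78 for CD14, which were higher. Summed over each list, endothelial markers had 5.58 to 7.72 CPM in 2D-primed libraries against 4.16 to 5.7 CPM, leukocyte markers 2194 to 2286 against 2421 to 3027 CPM, and stellate and fibroblast markers 42.7 to 46.7 against 40.5 to 48.7 CPM. Hepatocyte marker RNA, summed over the 8 genes, was 68976 to 75051 CPM in 2D-primed libraries and 96484 to 108487 CPM in 3D-primed libraries, with 6 of the 8 higher and 2 lower. The part of any of these markers in the enzyme results was not tested. The study's methods give a different seeding density for each substrate, which cannot be told apart from the substrate.

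The pentose phosphate pathway has an oxidative branch, in which glucose 6-phosphate carbon is oxidised and NADPH is made, and a non-oxidative branch, in which sugar phosphates are exchanged reversibly between ribose 5-phosphate and glycolytic intermediates. NADP-dependent malic enzyme and isocitrate dehydrogenases make NADPH by separate routes. In liver, NADPH is spent on fatty acid and sterol synthesis, on keeping glutathione and thioredoxin reduced, and on cytochrome P450 reactions.

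The gene starts are shown first, because the 8 expressed enzymes behaved differently while several of them share short promoter sequences. Of the 250 bases before each RefSeq transcript start (GRCh38.p14), 3 genes that rose in 3D-primed cells, IDH1, PGD and TKT, are set beside RPE, which did not pass the test. Capitals mark matches, on either strand, to 3 motifs. These were the GC box, spelled GGGCGG, the CCAAT box, spelled as in its name, and an antioxidant-type element, spelled TGACNNNGC. No window held the sterol element searched for, spelled TCACNCCAC. Each window ends at the base before the start of the GENCODE canonical transcript, and for these 4 genes the annotated gene begins further upstream with other transcripts, so each window lies wholly or partly inside the annotated gene.
IDH1, chr2:208255072-208255321, minus strand: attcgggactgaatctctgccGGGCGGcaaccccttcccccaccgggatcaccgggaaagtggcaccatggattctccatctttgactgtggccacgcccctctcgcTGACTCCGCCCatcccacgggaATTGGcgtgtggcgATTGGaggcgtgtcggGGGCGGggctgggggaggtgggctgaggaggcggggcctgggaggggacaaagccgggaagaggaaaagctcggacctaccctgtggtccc
PGD, chr1:10398814-10399063, plus strand: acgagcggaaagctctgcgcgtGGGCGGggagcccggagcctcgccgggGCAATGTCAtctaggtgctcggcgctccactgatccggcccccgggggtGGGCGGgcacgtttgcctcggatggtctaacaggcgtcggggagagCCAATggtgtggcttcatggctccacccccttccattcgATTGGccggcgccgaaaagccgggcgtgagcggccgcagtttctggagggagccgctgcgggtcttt
TKT, chr3:53256023-53256272, minus strand: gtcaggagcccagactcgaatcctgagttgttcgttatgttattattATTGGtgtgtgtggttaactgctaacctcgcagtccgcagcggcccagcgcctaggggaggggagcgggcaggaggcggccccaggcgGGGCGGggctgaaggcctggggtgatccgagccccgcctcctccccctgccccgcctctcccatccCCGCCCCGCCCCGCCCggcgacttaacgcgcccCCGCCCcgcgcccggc
RPE, chr2:210002388-210002637, plus strand: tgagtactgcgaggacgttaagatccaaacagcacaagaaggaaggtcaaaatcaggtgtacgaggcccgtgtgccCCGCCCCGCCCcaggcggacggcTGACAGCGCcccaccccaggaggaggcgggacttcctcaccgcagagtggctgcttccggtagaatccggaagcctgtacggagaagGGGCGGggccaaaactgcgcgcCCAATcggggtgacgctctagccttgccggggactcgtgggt

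In IDH1 the antioxidant-type match, 143 bases before the start, overlapped a GC box on the other strand, and the CCAAT boxes lay 121 and 107 bases before the start. PGD had CCAAT boxes 106 and 67 bases before its start and an antioxidant-type match at 201. TKT carried 5 GC boxes and 1 CCAAT box, with no antioxidant-type match. RPE had all 3 kinds of match. Among 35116 RefSeq promoters, 42.6% held a GC box, 32% a CCAAT box, 10.9% an antioxidant-type match and 0.883% the sterol element. Among the 9 genes these were found in 7, 6, 4 and 0 windows. The IDH2 window, which held no match, lay 1847 bases from the GENCODE canonical start and so may miss the promoter in use. The PGLS window, of a gene that also rose, held no match either. TALDO1 and RPIA, which did not pass the test, held GC boxes and CCAAT boxes without an antioxidant-type match. A link between motifs and expression was not tested, and a match describes letters and not a bound site.

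Expression was compared as CPM after scaling by trimmed means (TMM). Of the 8 tested enzymes, 4 were higher and 1 was lower in 3D-primed cells (edgeR quasi-likelihood test, Benjamini-Hochberg adjusted p under 0.05 over all tested genes). The background was high in this comparison, since 63.9% of all tested genes were called, 32.4% being higher and 31.6% lower, so 5 called of 8 was close to the rate of any gene. The median log2 fold change was 0.17 over the 8 enzymes and 0.01 over all tested genes. What distinguished individual enzymes was size, with IDH1 far ahead of the rest. Only 220 genes, 1.58% of those tested, rose by at least as much as IDH1. For PGD this number was 1058 (7.59%), for TKT 3798 (27.2%) and for PGLS 4188 (30.0%). IDH2 lay on the other side, with 2841 genes (20.4%) falling at least as much.

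**Figure D1:**
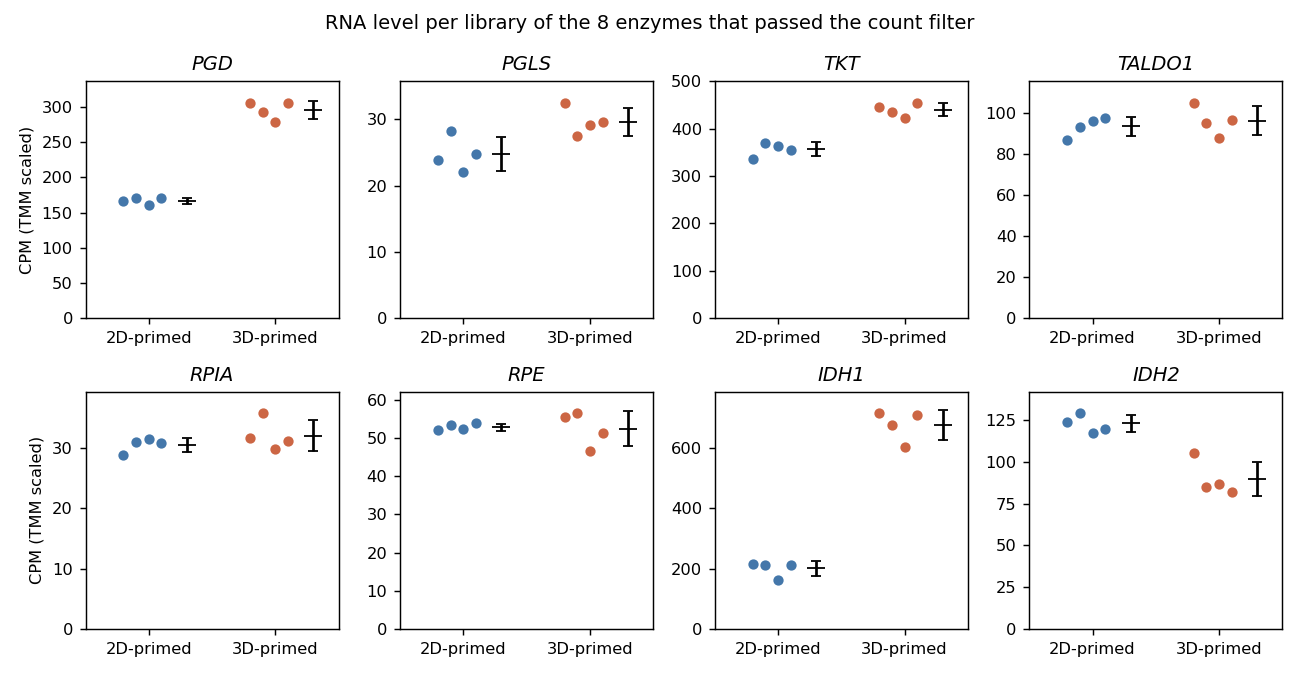
TMM-scaled CPM of each enzyme gene that passed the count filter, on a linear axis from 0. Points are libraries in replicate order and the bars beside them give the mean ± SD (n = 4 per group). IDH1, PGD and TKT stand clear and higher in 3D-primed cells, IDH2 stands clear and lower, and the 4 other genes overlap.

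In the oxidative branch, PGD was higher in 3D-primed cells and PGLS rose less. PGD (ENSG00000142657, chr1:10398592-10420511, plus strand, 13 exons in the canonical transcript) encodes 6-phosphogluconate dehydrogenase, the NADPH-producing step that releases carbon dioxide and ribulose 5-phosphate. In replicates 1 to 4 the 2D-primed cells had 166, 170.3, 161 and 169.9 CPM, against 306, 293, 279 and 305 CPM for the 3D-primed cells. The groups did not overlap, as was the case for 59.8% of all tested genes, and even the lowest 3D-primed library was far above the highest 2D-primed one. In bulk RNA, more cells with the transcript and more of it per cell cannot be told apart. The mean rose from 167 ± 4.3 to 296 ± 12.6 CPM (SD, n = 4 each), 1.77-fold. On the log2 scale the change was 0.83 ± 0.0416 (SE), with an adjusted p of 1.2e-07 in edgeR.

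PGLS (ENSG00000130313, chr19:17511636-17521288, plus strand, 5 exons) encodes 6-phosphogluconolactonase, which opens the lactone ahead of the PGD step. It had 23.8, 28.2, 22.1 and 24.8 CPM on the flat substrate and 32.5, 27.4, 29.1 and 29.5 CPM on the scaffold. Here the groups overlapped, because 2D-primed replicate 2 was above 3D-primed replicate 2. The mean went from 24.7 ± 2.58 to 29.6 ± 2.12 CPM, a log2 fold change of 0.26 ± 0.0785 (SE) that passed the edgeR test with an adjusted p of 0.014. Over every alternative setting this adjusted p stayed between 0.0027 and 0.044, which makes PGLS the called enzyme nearest to the threshold. PGD and PGLS are only part of the oxidative branch. Their summed RNA was 192 ± 6.64 CPM on the flat substrate and 325 ± 13.9 CPM on the scaffold. This sum was 1.70-fold higher on the scaffold, and most of the increase was PGD.

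In the non-oxidative branch a single enzyme gene, TKT, passed the test. TKT (ENSG00000163931, chr3:53224712-53256052, minus strand, 14 exons) encodes transketolase, which moves 2-carbon units between sugar phosphates. Its libraries read 337, 369.9, 364 and 356 CPM on the flat substrate and 446, 435, 423 and 455 CPM on the scaffold. The groups stood apart, by less than for PGD. From 357 ± 14.4 CPM the mean rose to 439.7 ± 13.8 CPM, 1.23-fold, with a log2 fold change of 0.30 ± 0.0417 (SE) and an adjusted p of 1.1e-04 in edgeR.

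TALDO1 (ENSG00000177156, chr11:747415-765012, plus strand, 8 exons) encodes transaldolase, the partner of transketolase that moves 3-carbon units. It had 87.0, 93.2, 96.0 and 97.4 CPM on the flat substrate and 105, 95.2, 87.7 and 96.7 CPM on the scaffold. Levels were interleaved between the groups. The log2 fold change was 0.04 (95% interval -0.09 to 0.17, adjusted p = 0.55 in edgeR), and its sign turned to -0.0095 without 3D-primed replicate 1.

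RPIA (ENSG00000153574, chr2:88691673-88750929, plus strand, 9 exons) encodes the isomerase between ribulose 5-phosphate and ribose 5-phosphate. Its 2D-primed libraries had 28.9, 31.0, 31.5 and 30.9 CPM and its 3D-primed libraries 31.7, 35.8, 29.8 and 31.2 CPM. The log2 fold change was 0.07 (95% interval -0.06 to 0.20, edgeR adjusted p = 0.33), and 3D-primed replicate 2 lay above the rest. Without that library the change was 0.0088. RPE (ENSG00000197713, chr2:210002565-210022260, plus strand, 6 exons) encodes the epimerase between ribulose 5-phosphate and xylulose 5-phosphate. It had 52.0, 53.4, 52.4 and 54.0 CPM on the flat substrate and 55.6, 56.5, 46.7 and 51.3 CPM on the scaffold, so that the 3D-primed values spanned the whole 2D-primed range. Its log2 fold change was -0.01 (95% interval -0.14 to 0.12, edgeR adjusted p = 0.87), and the sign turned positive under upper-quartile scaling (0.04), under total-count scaling (0.02) and without 3D-primed replicate 3 (0.03). For all 3 of these genes the interval leaves no room for a change as large as that of PGD, although smaller changes in either direction lie within it. The summed non-oxidative RNA was 534 ± 19.6 CPM on the flat substrate and 621 ± 23.2 CPM on the scaffold, 1.16-fold higher.

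Pseudogenes were looked up by name for RPE, PGD and RPIA, and copies of the other enzyme genes were not searched for. The 8 found in the files, 6 of them from RPE, had at most 1 count in any library. KANSL1L, which overlaps the RPE 3′ end on the opposite strand, had 168 to 251 counts per library against 1134 to 1474 for RPE.

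Malic enzyme RNA was close to absent for the cytosolic NADP form. ME1 (ENSG00000065833, chr6:83210402-83431051, minus strand) encodes the enzyme that turns malate into pyruvate and makes NADPH from NADP. It had 0 counts in each 2D-primed library and 1 count in each 3D-primed library, and was not tested. A count of 0 allows up to 3 counts, or 0.12 to 0.139 CPM in the 2D-primed libraries, a limit that covers counting error only, and the 3D-primed libraries lay under it too, so no fold was formed. The mitochondrial gene ME3, also NADP-dependent, had 2 counts over the 2D-primed and 1 over the 3D-primed libraries. ME2, whose mitochondrial product works mainly with NAD, was the malic enzyme gene that was expressed. It had 18.7 ± 0.731 CPM on the flat substrate and 17.5 ± 1.37 CPM on the scaffold (log2 fold change -0.10, 95% interval -0.24 to 0.05, edgeR adjusted p = 0.21). When 3D-primed replicate 2 was left out, the change was -0.16 and passed the test (adjusted p = 0.047).

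The NADP-dependent isocitrate dehydrogenase genes moved in opposite directions. IDH1 (ENSG00000138413, chr2:208236229-208266074, minus strand, 10 exons) encodes the cytosolic and peroxisomal enzyme that converts isocitrate to 2-oxoglutarate and makes NADPH from NADP. It had 216, 213, 163 and 211 CPM on the flat substrate and 714, 674, 604 and 709 CPM on the scaffold. The groups were far apart, with 2D-primed replicate 3 below the other 2D-primed libraries and 3D-primed replicate 3 the lowest of its group. The mean rose from 200.4 ± 25.1 to 675 ± 51.0 CPM, 3.37-fold (log2 fold change 1.75 ± 0.0921 SE, 95% interval 1.55 to 1.96, edgeR adjusted p = 1.6e-07). Without 2D-primed replicate 3 the log2 fold change was 1.66.

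IDH2 (ENSG00000182054, chr15:90083045-90102477, minus strand, 11 exons) encodes the mitochondrial NADP-dependent counterpart. Its libraries had 124, 129, 117 and 119.8 CPM on the flat substrate and 105, 85.2, 86.4 and 82.0 CPM on the scaffold. All 3D-primed libraries were below all 2D-primed ones, replicate 1 being the highest of the 3D-primed group. The mean fell from 123 ± 5.22 to 89.6 ± 10.3 CPM, 1.37-fold lower, with a log2 fold change of -0.45 ± 0.073 (SE) and an edgeR adjusted p of 3.2e-04. Without 3D-primed replicate 1 the log2 fold change was -0.54. The share of counts from the mitochondrial genome, by comparison, was higher in 3D-primed cells (2.47% to 2.98%) than in 2D-primed cells (1.40% to 1.81%), and its part in this result was not tested.

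**Figure D2:**
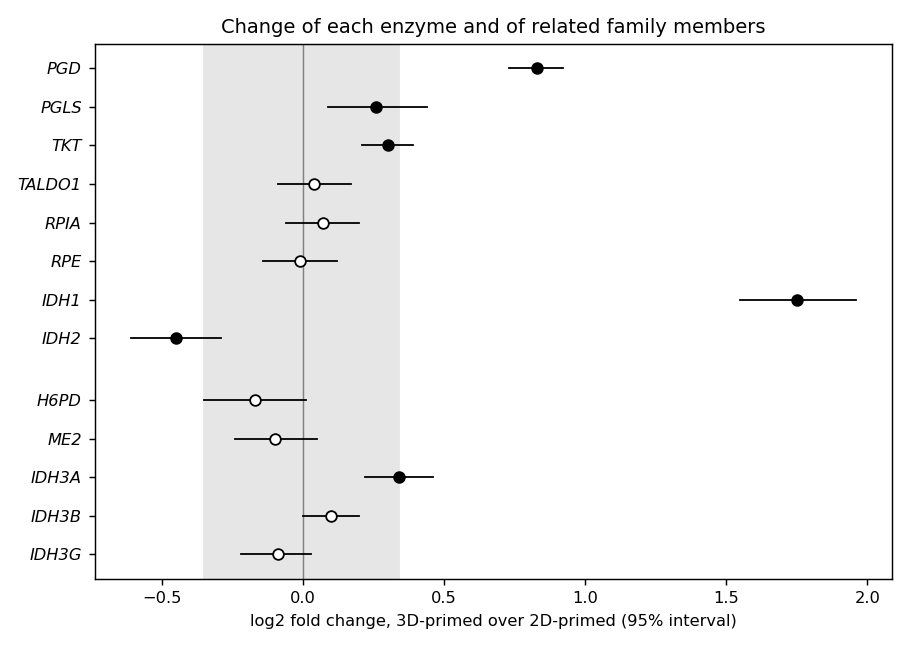
Log2 fold change, 3D-primed over 2D-primed, with its 95% interval for the 8 tested enzyme genes and, below them, 5 related family members. Filled points passed the edgeR test and open points did not, and the grey band holds the middle of all tested genes (25th to 75th percentile, -0.35 to 0.34). The points of IDH1 and PGD lie beyond the band on the right and that of IDH2 on the left, and those of PGLS and TKT lie inside it.

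The shift between the isocitrate dehydrogenase genes was also read within each library, where no scaling enters. The percentage of summed IDH1 and IDH2 counts that came from IDH1 was 63.4, 62.2, 58.2 and 63.8 in the 2D-primed group and 87.2, 88.8, 87.5 and 89.6 in 3D-primed libraries, with means of 61.9% ± 2.58 and 88.3% ± 1.14. IDH1 thus gave most of the counts in both groups, and more so in the 3D-primed one. The ratio of IDH1 to IDH2 counts averaged 1.63 on the flat substrate and 7.56 on the scaffold, a log2 difference of 2.22 or 4.65-fold (2-sided exact permutation test, p = 0.029). With 70 arrangements of 4 against 4 libraries, 0.029 is the smallest p the design allows. The sum of both genes was 323 ± 29.0 CPM on the flat substrate and 765 ± 55.5 CPM on the scaffold.

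Within the pentose phosphate pathway, 2 further ratios compared the branches and the transferases. The log2 ratio of PGD to TKT was -1.02, -1.12, -1.18 and -1.07 for the 2D-primed group and -0.54, -0.57, -0.60 and -0.57 in 3D-primed libraries. PGD thus rose by more than TKT, by 0.52 on the log2 scale (1.44-fold, exact permutation p = 0.029). The log2 ratio of TALDO1 to TKT was -1.95, -1.99, -1.92 and -1.87 for the 2D-primed group and -2.09, -2.19, -2.27 and -2.23 in 3D-primed libraries, and the difference was -0.26 (exact permutation p = 0.029). Transketolase RNA therefore gained on transaldolase RNA by 1.2-fold. Without 2D-primed replicate 4 the exact permutation p of this ratio was 0.057. Adjusted over the 3 ratios, each p stayed at 0.029.

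**Figure D3:**
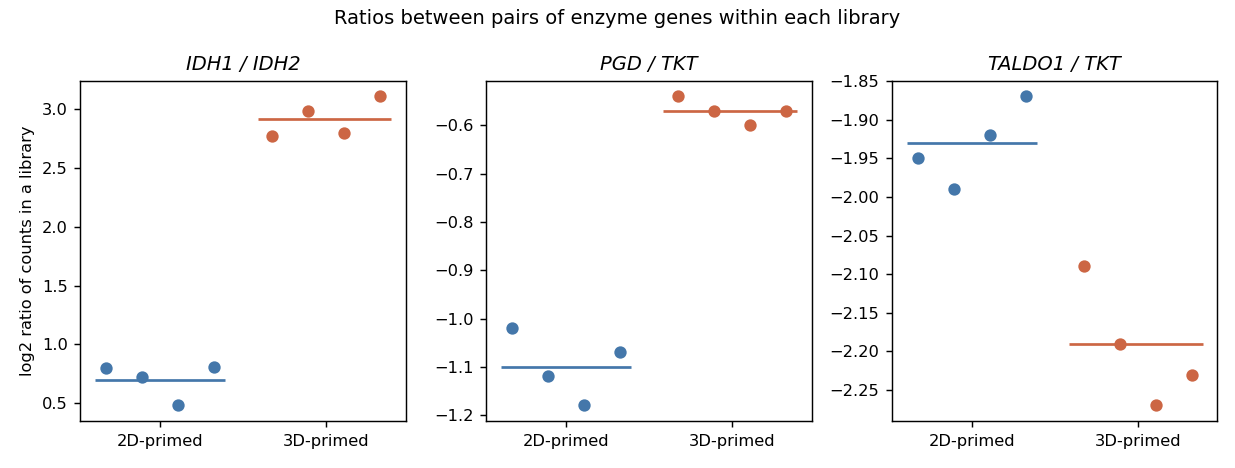
Log2 ratio of counts between 3 pairs of enzyme genes, 1 point per library with the group mean as a line, each panel on its own axis. The libraries of the groups do not overlap in any panel, and the gap is widest for IDH1 over IDH2, from a mean of 0.70 on the flat substrate to 2.92 on the scaffold.

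Levels of different genes were compared per kilobase of the canonical transcript. In 2D-primed cells TKT was the highest at 119 CPM per kilobase (library range 112 to 123). IDH1 (70.3 to 93.0), TALDO1 (72.6 to 81.3) and PGD (71.0 to 75.1) followed with overlapping ranges. IDH2 came next at 46.1 and PGLS at 24.5, and RPIA and RPE were lowest at 16.9 and 16.6. In 3D-primed cells the order was led by IDH1 at 291 CPM per kilobase (260 to 308), followed by TKT at 147 (141 to 152) and PGD at 130 (123 to 135), and TALDO1 was at 80.2. IDH2 (30.8 to 39.4) and PGLS (27.1 to 32.2) overlapped in that group, as did RPIA and RPE, at 17.7 and 16.5. IDH1 had moved from below TKT in every 2D-primed library to above it in every 3D-primed one.

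Over all tested genes, 32.4% were called higher and 31.6% lower, which is the background for this list and those below. Of 14 other pentose phosphate genes listed, 11 were tested, 4 were higher, 0 were lower and 7 did not pass, with a median log2 fold change of 0.10. At an unadjusted p under 0.05, edgeR and limma-voom had 0 lower and DESeq2 had 1, and none of these tools called a gene lower after adjustment. Without 3D-primed replicate 1 or replicate 3, 1 gene was called lower. SHPK, the kinase that feeds sedoheptulose into the non-oxidative branch, rose from 24.7 ± 3.01 to 43.9 ± 1.80 CPM (log2 fold change 0.83, edgeR adjusted p = 7.5e-06). RBKS, ribokinase, rose from 7.59 ± 0.565 to 11.3 ± 0.504 CPM (0.57). PRPSAP2, a partner of phosphoribosyl pyrophosphate synthetase, rose from 23.5 ± 0.471 to 31.7 ± 2.17 CPM (0.43). H6PD, which carries out oxidative steps inside the endoplasmic reticulum, had 115 ± 8.77 and 102 ± 12.2 CPM and did not pass (log2 fold change -0.17, edgeR adjusted p = 0.097). Leaving out 3D-primed replicate 3 took it to -0.27 with an adjusted p of 0.0027. The paralogues of TKT and RPE were scarcely detected, as TKTL1 had 1 count in each group and TKTL2 and RPEL1 had 0 in every library.

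The list of other NADPH-source genes was broad, holding ME2, which works mainly with NAD, and kinases that make NADP. The cofactor used by its folate dehydrogenases was not measured, so its counts are not of NADPH-producing enzymes alone. Of its 11 genes, 10 were tested and 7 of those were higher, 0 lower, with a median log2 fold change of 0.57. At an unadjusted p under 0.05, 0 were lower in edgeR and limma-voom and 1 in DESeq2, which called 0 after adjustment. MTHFD2, a mitochondrial folate dehydrogenase, rose from 95.6 ± 3.70 to 281 ± 4.94 CPM (log2 fold change 1.56, edgeR adjusted p = 4.7e-09). NADK2, the mitochondrial kinase that makes NADP from NAD, rose from 29.2 ± 3.38 to 65.1 ± 2.98 CPM (1.16). ALDH1L1, the cytosolic formyltetrahydrofolate dehydrogenase, rose from 23.8 ± 2.31 to 45.5 ± 3.33 CPM (0.94). The rise thus included folate enzymes of both compartments. Without 3D-primed replicate 2, 2 genes of this list were also called lower.

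Around isocitrate and malate, 5 of 12 tested genes were higher and 1 was lower (median log2 fold change 0.09). The number higher fell to 3 without 2D-primed replicate 3, 3D-primed replicate 1 or 3D-primed replicate 2. ACLY, which splits cytosolic citrate for lipid synthesis, rose from 210.4 ± 11.4 to 442 ± 18.1 CPM (log2 fold change 1.07), and SLC25A1, the mitochondrial citrate carrier, from 134 ± 7.86 to 190.4 ± 10.5 CPM (0.50). Among the subunits of the NAD-dependent isocitrate dehydrogenase, IDH3A rose (0.34, edgeR adjusted p = 2.9e-04), while IDH3B (0.10, adjusted p = 0.079) and IDH3G (-0.09, adjusted p = 0.17) did not pass. IDH3B passed under upper-quartile scaling (0.15, adjusted p = 0.014), under total-count scaling (0.13, adjusted p = 0.030) and without 3D-primed replicate 4 (0.13, adjusted p = 0.047).

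Genes of pathways that spend NADPH were counted in a biosynthesis list and a reductase list, and the difference between these lists was not tested. Not every listed gene encodes a step that itself uses NADPH, NSDHL being a dehydrogenase. All 12 tested genes of NADPH-using biosynthesis were higher in 3D-primed cells, with a median log2 fold change of 1.5 and a range of 0.36 to 1.97. CYP51A1, a sterol demethylase, rose from 131 ± 11.3 to 508 ± 14.7 CPM, SC5D, a sterol desaturase, from 63.3 ± 3.64 to 210.2 ± 8.06 CPM, and NSDHL, a sterol dehydrogenase, from 20.9 ± 1.42 to 66.2 ± 5.36 CPM. Of 11 NADPH-using reductases, 5 were higher and 4 lower, with a median of 0.06 and a range of -0.55 to 1.01 that overlapped the biosynthesis range, and the number lower was 2 under upper-quartile scaling. Among them NQO1, a quinone reductase, rose from 243 ± 5.09 to 349.8 ± 48.4 CPM. AKR1A1, an aldehyde reductase, rose from 71.0 ± 2.39 to 92.8 ± 5.78 CPM. AKR1B10, another aldo-keto reductase with close relatives whose reads may be split uncertainly, rose from 33.3 ± 1.79 to 67.0 ± 7.98 CPM.

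Finally, target genes of transcription factors known to act on NADPH metabolism were counted. Of 12 NRF2 targets, the antioxidant-response group, 6 were higher and 6 lower, with a median log2 fold change of 0.05. SLC7A11, the cystine transporter, rose from 16.3 ± 1.62 to 87.2 ± 9.65 CPM, whereas OSGIN1 fell from 96.1 ± 15 to 44.2 ± 3.05 CPM and GCLC, the catalytic subunit for glutathione synthesis, fell from 163 ± 8.73 to 108 ± 6.61 CPM. Of 11 lipogenic targets of SREBP1, 10 were tested and all 10 were higher (median 1.40). FADS2, a fatty acid desaturase, rose from 28.5 ± 2.66 to 241 ± 16.1 CPM, ACSS2, which activates acetate, from 40.8 ± 4.50 to 195 ± 14.0 CPM, and ELOVL6, a fatty acid elongase, from 9.78 ± 1.27 to 41.6 ± 1.6 CPM. The lists share 5 genes (ACLY, FASN, GSR, NQO1 and TXNRD1), and all were chosen with earlier results of these data known.

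**Figure D4:**
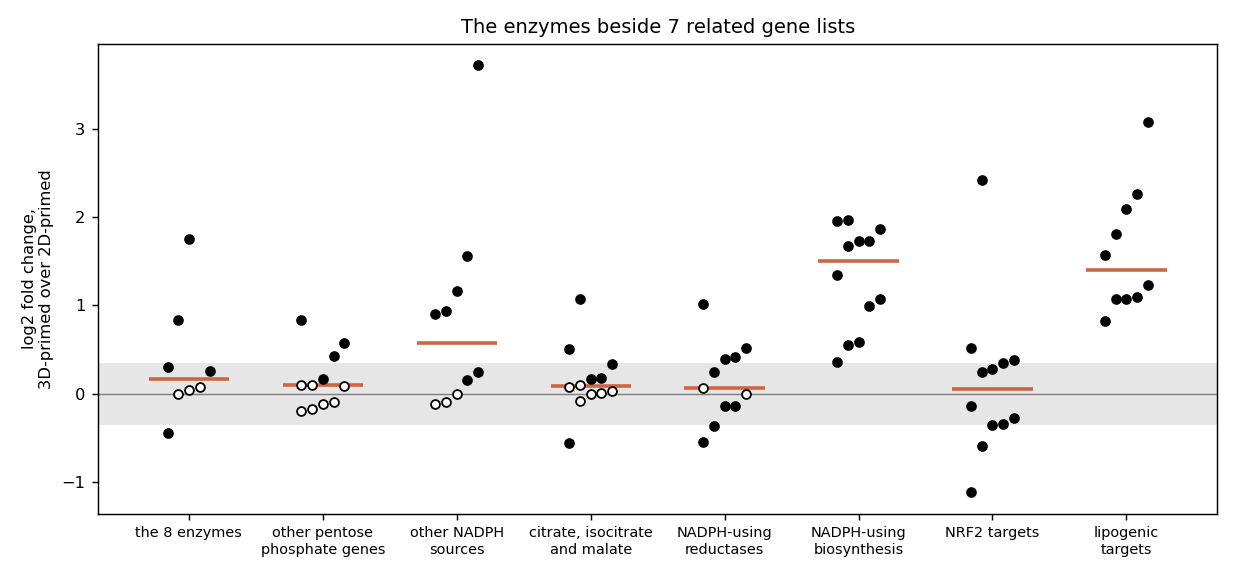
Log2 fold change, 3D-primed over 2D-primed, of each tested gene in the enzyme set and in 7 related lists. Filled points passed the edgeR test, open points did not, orange bars are list medians and the grey band spans the 25th to 75th percentile of all tested genes. The medians of NADPH-using biosynthesis (1.5) and lipogenic targets (1.40) lie far above the band and that of the enzymes (0.17) lies inside it.

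The likeness of each enzyme's profile to 73 genes of these lists was measured as Pearson's r of log2(CPM + 0.5) over the 8 libraries. The gap between the groups contributes most for IDH1, PGD, TKT and IDH2, and little for TALDO1, RPIA and RPE. Taking close counterparts from 73 genes in itself favours a high r, so these values are a description only. IDH1 had r = 0.997 with SQLE, a gene of sterol synthesis, and PGD was most like NSDHL (0.998). TKT was most like PRPSAP2 (0.978) and IDH2 most like BLVRB (0.956). PGLS had r = 0.904 with PYCR1, RPE 0.821 with SLC25A10 and TALDO1 0.81 with MDH2. RPIA had no close counterpart, its highest r being 0.632 with PRPS1. After each group was centred on its own mean, r for the same pairs was 0.804 for PGD, 0.802 for PGLS, 0.724 for TKT, 0.828 for TALDO1, 0.531 for RPIA, 0.821 for RPE and 0.905 for IDH2.

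Libraries of one group differed together for some of these genes. In 2D-primed replicate 3, IDH1 lay at -0.289 from its group mean on the log2 scale, PGD at -0.05 and IDH2 at -0.063, while TKT was 0.03 above. The median of the NADPH-using biosynthesis genes was at -0.17 in that library and the median of all tested genes 0.005 above. All 12 biosynthesis genes and all 10 lipogenic targets had their lowest 2D-primed value there, as did 4 of the 8 enzymes (PGD, PGLS, IDH1 and IDH2) and 26.0% of all tested genes. In 3D-primed replicate 1, IDH2 was 0.231 above its group mean.

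**Figure D5:**
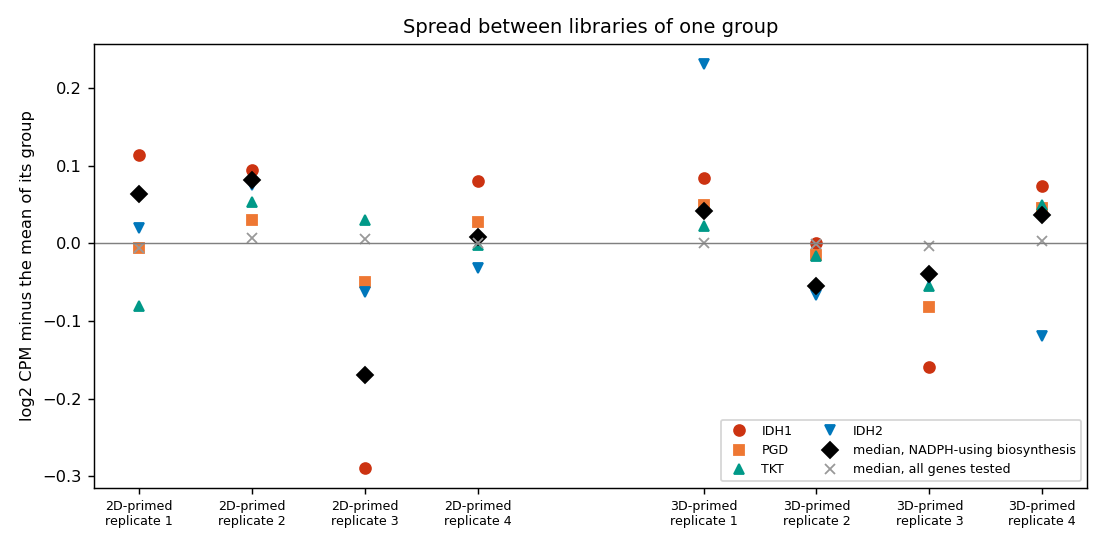
Log2 CPM (with 0.5 added) minus the mean of the library's own group for 4 enzyme genes, for the median of the NADPH-using biosynthesis genes and for the median of all tested genes. In 2D-primed replicate 3, IDH1 (-0.289) and the biosynthesis median (-0.17) lie lowest, while the median of all genes is within 0.007 of 0 in every library.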

How the data were processed

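RNA was measured in 8 HepG2 libraries, 4 per group, taken from their GEO labels. The deposited values were estimated counts per gene, which the authors made with Salmon against Ensembl transcripts (GRCh38) and summed to genes with tximport, and the files held whole numbers. Whether the counts were corrected for transcript length is not given in the sources used here. GENCODE 44 symbols were found for 34977 of 38032 identifiers (92.0%), and RefSeq promoter windows matched all 9 genes, the IDH2 window lying 1847 bases from the GENCODE canonical start.

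The 13943 genes reaching 10 counts in 2 or more libraries were TMM-scaled and tested with edgeR 4.0.16 (R 4.3.3, quasi-likelihood F test, Benjamini-Hochberg threshold 0.05). Standard errors came from the F statistic, and 95% intervals were formed on the log2 scale. Ratios used a 2-sided exact permutation test. Pairs of same-group libraries differed beyond counting noise (chi-square per degree of freedom 6.19 to 17.0). Settings tried in turn were other scalings and filters, DESeq2 1.42.0, limma-voom (limma 3.58.1), a replicate block and leaving out each library. Scripts were tested on simulated data.

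Members and lists were chosen with earlier results of these data known. For each related list the text names up to 3 genes with the smallest p, along with the family members of the 9 genes. Some genes that this rule selects are not reported here. Counting error alone is covered by the count limits, and greater library depth gives less error for low genes. Amino acid sequences were not used here.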

Additional observations from a re-analysis of the deposited data

Results flagged for a closer look

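Among 74 groups of 4 libraries examined for the named genes, 4 (5.41%) had 1 library further from the rest than Dixon's 95% limit, and chance alone flags about 1 group in 20. IDH1 in 2D-primed replicate 3 was at 163 CPM, against 211 to 216 CPM in the other 2D-primed libraries (a gap of 0.905 of the group's range). In the same library ALDH1L1 was at 20.3 CPM against 24.5 to 25.1 (0.876) and ACLY at 193 CPM against 214 to 218 (0.856). AKR1B10 stood out in 2D-primed replicate 1, at 36 CPM against 32.2 to 32.6 (0.892). The cause of these differences between libraries was not tested.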

How the results depend on the processing

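Over 17 alternatives, the 5 called enzymes kept their direction and stayed past the threshold, with log2 fold changes of 1.66 to 1.80 for IDH1, 0.80 to 0.88 for PGD, 0.28 to 0.35 for TKT, 0.21 to 0.33 for PGLS and -0.54 to -0.40 for IDH2. The sign of RPE (main -0.01) turned under upper-quartile scaling (0.04) and total counts (0.02), and its range when 1 library was left out was -0.05 to 0.03. TALDO1 ranged from -0.0095 to 0.08 when 1 library was left out. NADPH-using reductases called lower numbered 2 under upper-quartile scaling. When 1 library was left out, other pentose phosphate genes called lower numbered 0 to 1, other NADPH sources called lower 0 to 2, and isocitrate and malate genes called higher 3 to 6. The TALDO1 to TKT difference ranged from -0.30 to -0.24 when 1 library was left out, and passed the test except without 2D-primed replicate 4. The cause of these changes was not tested. Upper-quartile scaling moved the median of all genes by 0.05.

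Same-numbered libraries did not deviate together (correlations -0.044, -0.019, 0.046 and 0.01, with 1 of 4 libraries most like its own number), so the replicate block was an alternative only. With it, 4267 genes were higher and 4223 lower, against 4515 and 4401. The block left the ratio differences at 2.22, 0.52 and -0.26, each with p = 0.12, the smallest that 4 pairs allow in an exact sign permutation. It changed no call of the 8 enzymes. Depth limits ME1, ME3 and TKTL1, which had at most 1 count in a library.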
